A study of Mus musculus with 6 samples.

Results

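Natural killer (NK) cells and cytotoxic T cells recognise target cells through surface receptors and kill them with the content of secretory granules. The genes described here are 10 of that machinery, chosen by symbol from the deposited gene table: 5 receptors (Klrd1, Klrk1, Klrb1c, Klra7 and Ncr1) and 5 genes of the cytotoxic granule (Gzma, Gzmb, Gzmk, Prf1 and Nkg7). All 10 symbols were found once each among the 37447 genes of the table. The RNA came from flow-sorted microglia, the macrophages that reside in nervous tissue, of C57BL/6 optic nerves taken at 3 months of age. Mice of the group FMC were Nf1 flox/mut and carried GFAP-Cre, a recombinase under a promoter used by astroglia (4 libraries, with FMC 1 and 4 from females and FMC 2 and 3 from males by label). Mice of the control group FM were Nf1 flox/mut without Cre (2 libraries, with FM 1 from a male and FM 2 from a female by label), so the mutant Nf1 allele is shared by both groups and the microglia themselves are not the cells in which that promoter is known to act. The labels call the libraries biological replicates and do not say how many mice entered each.

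As background, the receptors Klrd1, Klrk1, Klrb1c and Klra7 are C-type lectin-like proteins encoded in the NK gene complex on mouse chromosome 6, and Ncr1 is an immunoglobulin-like receptor. Their signals decide whether an NK cell releases its granules, in which perforin (Prf1) opens a path into the target cell for the granzymes (Gzma, Gzmb, Gzmk), and Nkg7 is a granule membrane protein needed for efficient release. Microglia are not cytotoxic lymphocytes, so in a sort of microglia these genes also serve as markers of other immune cells.

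Values are FPKM, fragments scaled by the authors to transcript length and library total. Microglial markers were strong in every library: 14 of 14 reached 1 FPKM, and their sum was between 3824 and 6134 FPKM in FMC and 4005 and 7826 FPKM in FM. Fragment totals are not in the table, but low FPKM values step in whole fragments, and their steps gave depths relative to FMC 2, the shallowest library, of 1.38 for FMC 1, 1.97 for FMC 3, 2.13 for FMC 4, 1.17 for FM 1 and 3.36 for FM 2. A gene near its detection limit was therefore easier to see in FM 2 than in any other library.

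RefSeq promoter windows in GRCm38.p6 were found for 9 of the 10 genes. The 250 bases before each RefSeq gene start were searched on both strands for core sites of 3 factor families known in cytotoxic lymphocytes. These were the T-box half-site AGGTGT, the Runx site TGTGGT and the Ets site AGGAAG. The T-box letters were in 4 of the 9 windows, those of Gzma, Gzmk, Prf1 and Nkg7, against 11.8% of the 32851 windows of all genes. The Runx letters were in 7 of the 9 (14.0% of all windows), and the Ets letters in 4 of the 9 (29.5% of all windows). The 4 windows with T-box letters are printed because they belong to granule genes, among them Gzmk, whose FMC and FM libraries did not overlap, and Nkg7 and Gzma, which were highest in 1 FMC library. Nkg7 lies on the plus strand (chr7:43436888-43437137), Prf1 on the plus strand (chr10:61297586-61297835), Gzma on the minus strand (chr13:113100982-113101231) and Gzmk on the minus strand (chr13:113180966-113181215). Capitals mark letters of any of the 3 sites in either orientation. A match of letters is a description of the window and not a binding site. The bases just after the start were found in annotated transcripts of Nkg7 and Gzma. They were not found in those of Gzmk, Prf1 and Gzmb, so the starts of these windows are uncertain. No window was compared with the mm9 span of its gene in the table, and the Gzmk window need not lie at the start of that span.
Nkg7: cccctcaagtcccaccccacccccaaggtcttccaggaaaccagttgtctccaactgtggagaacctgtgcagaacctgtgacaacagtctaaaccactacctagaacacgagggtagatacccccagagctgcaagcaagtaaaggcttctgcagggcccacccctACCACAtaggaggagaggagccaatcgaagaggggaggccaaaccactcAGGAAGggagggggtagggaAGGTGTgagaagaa
Prf1: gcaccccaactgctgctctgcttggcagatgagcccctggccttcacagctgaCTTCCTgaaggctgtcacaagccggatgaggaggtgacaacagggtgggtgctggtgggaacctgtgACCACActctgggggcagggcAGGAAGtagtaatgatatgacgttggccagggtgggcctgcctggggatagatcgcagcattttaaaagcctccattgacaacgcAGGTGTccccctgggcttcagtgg
Gzma: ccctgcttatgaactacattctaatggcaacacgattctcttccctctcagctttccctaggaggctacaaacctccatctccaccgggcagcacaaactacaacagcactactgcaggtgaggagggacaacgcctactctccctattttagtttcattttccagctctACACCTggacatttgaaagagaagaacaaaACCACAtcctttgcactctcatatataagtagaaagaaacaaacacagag
Gzmk: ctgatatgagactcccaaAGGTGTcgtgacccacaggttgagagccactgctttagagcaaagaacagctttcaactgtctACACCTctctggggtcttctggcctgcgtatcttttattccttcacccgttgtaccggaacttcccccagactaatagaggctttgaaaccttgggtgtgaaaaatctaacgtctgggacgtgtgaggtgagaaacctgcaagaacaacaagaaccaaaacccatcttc
Nkg7 and Prf1 held all 3 sites, Gzma the T-box and Runx letters, and Gzmk 2 copies of the T-box letters and neither of the others.

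Across the receptors, Klrd1 had the highest level in every library and was the receptor whose groups were furthest apart. Klrd1 encodes CD94, which pairs with NKG2 proteins to read the non-classical MHC molecule Qa-1. It had 4.61, 13.1, 1.08 and 3.64 FPKM in FMC 1 to FMC 4, against 84.4 and 35.7 FPKM in FM 1 and FM 2. All FMC libraries lay below both FM libraries. The means were 5.60 ± 5.19 FPKM in FMC (SD, n = 4) and 60.1 ± 34.4 FPKM in FM (SD, n = 2). On the log2(FPKM + 1) scale the difference, FMC minus FM, was -3.42 ± 0.82 (SE), which is 10.7-fold on that scale. It did not pass limma's test across all genes (adjusted p = 0.487; 0.407 to 0.997 over the alternative fits). An exact two-sided permutation test of the 15 splits into 4 and 2 libraries gave p = 0.0667, the smallest that this design allows. With each library left out in turn the difference stayed between -4.02 and -2.81. Within the pairs of libraries with adjacent dates in their titles, 1 day apart, it was -2.60 (FMC 2 minus FM 1) and -4.15 (FMC 3 minus FM 2). The labels do not say what those dates record, and FMC 3 and FM 2 also differ in labelled sex. Klrd1 (ENSMUSG00000030165) lies on chromosome 6 from 129541800 to 129548793 in mm9, and no other gene of the table overlaps it.

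The genes of the NKG2 partners of Klrd1 stayed under 1 FPKM in every library. Klrc1, which encodes the inhibitory partner NKG2A and is named here after its values were seen, was listed at 0 in FMC 1, FMC 2, FMC 4 and FM 2 and did not exceed 0.137 FPKM, its value in FM 1. Klrc2, which encodes the activating partner NKG2C and is also named after its values were seen, had 0.0220, 0.606, 0.360 and 0.0308 FPKM in FMC 1 to FMC 4, against 0.979 and 0.172 FPKM in FM 1 and FM 2, and like Klrd1 was highest in FM 1. Klrc3, a further member of that family, did not exceed 0.425 FPKM, its value in FMC 1. Klrk1, which lies close by on chromosome 6 (129560341 to 129573882), encodes the activating receptor NKG2D. It had 0.204, 0.718, 0.773 and 0.00590 FPKM in FMC 1 to FMC 4, against 0.606 and 2.16 FPKM in FM 1 and FM 2. The groups overlapped, and only FM 2 passed 1 FPKM. Klrd1 made up between 55.5% and 85.1% of the summed FPKM of the 5 receptors in FMC, and 98.5% and 76.6% of it in FM 1 and FM 2.

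Ncr1 encodes NKp46, an activating receptor found almost entirely on NK cells and related innate lymphocytes. It had 0.0461, 0.411, 0.0320 and 0.349 FPKM in FMC 1 to FMC 4, against 0.268 and 7.02 FPKM in FM 1 and FM 2. Only FM 2 stood out, and FM 1 lay within the FMC range (exact two-sided permutation test, p = 0.2). Klra7 encodes Ly49G, an inhibitory receptor for classical MHC class I. It was listed at 0 in FMC 1 and had 1.10, 0.0497 and 0.0618 FPKM in FMC 2 to FMC 4, against 0.130 and 1.20 FPKM in FM 1 and FM 2. One library of each group was high, so the groups overlapped (log2 difference -0.35 ± 0.50 SE, limma adjusted p = 0.999). Many Klra genes are near-identical copies and the span of Klra7 overlaps that of Klra9 in the table. Reads may thus be split among them, and the value is uncertain. Klrb1c encodes NK1.1, the antigen used to recognise NK cells in C57BL/6 mice. It had 0.879, 0.0587, 0.00856 and 0.520 FPKM in FMC 1 to FMC 4, against 0.270 and 0.529 FPKM in FM 1 and FM 2. It stayed under 1 FPKM in all 6 libraries, and the FM values lay inside the FMC range.

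**Figure D1:**
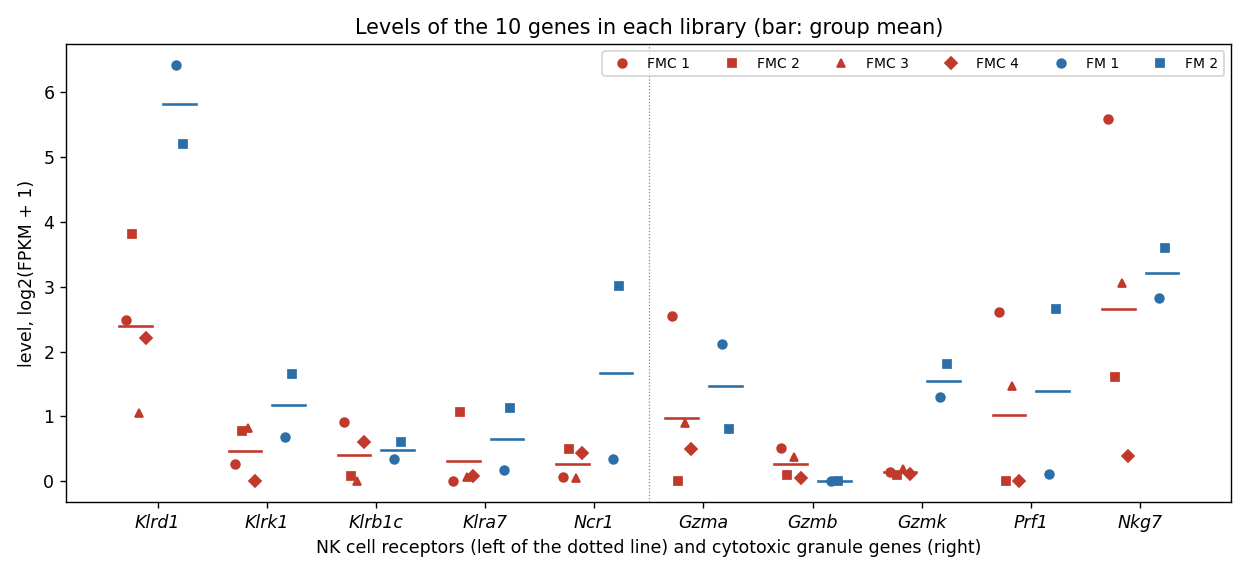
Levels on the log2(FPKM + 1) scale (vertical axis) of the 5 receptors and the 5 granule genes (horizontal axis) in each FMC library (red, left) and each FM library (blue, right), with bars at the group means. Klrd1 and Gzmk are lower in every FMC library than in both FM libraries, and Nkg7 ranges from 0.306 to 46.7 FPKM among the FMC libraries.

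Among the granule genes Nkg7 had the highest mean level in both groups and the highest level in every library but FMC 4, where Gzma was above it, and FMC spanned its whole range. It had 46.7, 2.06, 7.30 and 0.306 FPKM in FMC 1 to FMC 4, against 6.10 and 11.1 FPKM in FM 1 and FM 2. FMC holds both the highest and the lowest libraries, with FM between them. The means were 14.1 ± 22.0 FPKM in FMC (SD, n = 4) and 8.62 ± 3.55 FPKM in FM (SD, n = 2), while the log2 difference was -0.56 ± 1.30 (SE, limma adjusted p = 0.999). The mean FPKM is thus higher in FMC and the mean log2 level lower. Without FMC 1 the difference was -1.53, and without FMC 4 it was 0.20.

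Prf1, the pore-forming protein, had 5.08 and 1.76 FPKM in FMC 1 and FMC 3 and was listed at 0 in FMC 2 and FMC 4, against 0.0872 and 5.32 FPKM in FM 1 and FM 2. Its groups overlapped (log2 difference -0.37 ± 1.00 SE, limma adjusted p = 0.999), and without FM 2 the difference was 0.90. Gzma, a trypsin-like granzyme, was listed at 0 in FMC 2 and had 4.83, 0.858 and 0.407 FPKM in FMC 1, FMC 3 and FMC 4, against 3.36 and 0.745 FPKM in FM 1 and FM 2. FMC 1 was again the highest library, followed by FM 1 (log2 difference -0.48 ± 0.84 SE, limma adjusted p = 0.999). Nkg7, Prf1 and Gzma were highest or second highest in FMC 1, and FMC 2 and FMC 4 were the lowest libraries for all 3.

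Gzmk, another trypsin-like granzyme, had 0.109, 0.0751, 0.145 and 0.0812 FPKM in FMC 1 to FMC 4, against 1.45 and 2.51 FPKM in FM 1 and FM 2. The FMC values lay close together and all below FM. The means were 0.103 ± 0.032 FPKM in FMC (SD, n = 4) and 1.98 ± 0.75 FPKM in FM (SD, n = 2), and the log2 difference was -1.41 ± 0.44 (SE, limma adjusted p = 0.676; 0.343 to 1 over the alternative fits). The exact two-sided permutation test gave p = 0.0667, the smallest possible. Gzmk entered the test across all genes through its 2 FM libraries alone, so a gene kept in this way had to be lower in FMC. The difference was -1.19 for FMC 2 minus FM 1 and -1.61 for FMC 3 minus FM 2, the libraries with adjacent dates in their titles. Gzmk (ENSMUSG00000042385) lies on chromosome 13 from 113961816 to 114016116 in mm9, and in the table its span overlaps Esm1, an endothelial gene with no more than 0.292 FPKM in any library.

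Gzmb, the granzyme that cleaves after aspartate and sets off apoptosis, had 0.433, 0.0699, 0.303 and 0.0328 FPKM in FMC 1 to FMC 4 and was listed at 0 in FM 1 and FM 2. All FMC libraries were above FM, at levels under 1 FPKM, and no fold is given against a group at 0 (exact two-sided permutation test, p = 0.133). Multiplied by relative depth, the FMC values became 0.596, 0.0699, 0.597 and 0.0701. FMC 2 and FMC 4 thus came to nearly 1 value and FMC 1 and FMC 3 to another, and FM 2, the deepest library, was at 0.

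Counted together, 6 of the 10 genes reached 1 FPKM in at least 2 libraries and entered the fit across all genes, and Klrk1, Klrb1c, Ncr1 and Gzmb did not. Of the 6, limma called 0 higher and 0 lower in FMC at the threshold of 0.05 for adjusted p, where it called 0.00% of the 18208 genes tested higher and 0.0275% lower. At an unadjusted p under 0.05 there were 0 higher and 2 lower (Klrd1 and Gzmk), against 1.14% and 4.20% of all genes. All FMC libraries lay below both FM libraries in those same 2 genes and above in 0, against 8.22% and 4.34% of all genes. The log2 difference was below 0 in 6 of 6, against 56.5% of all genes. Its median was -0.52 over the 6 and also -0.52 over all 10 without the filter, beside -0.12 over all genes tested and 0.0 over all genes without the filter. Since a gene can enter through FM alone, these counts are a description. Quantile normalization moved the median of all genes to 0.04 and left each of the 6 differences below 0. Over the exact permutation tests of all 10 genes the smallest p was 0.0667, for Klrd1 and Gzmk.

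**Figure D2:**
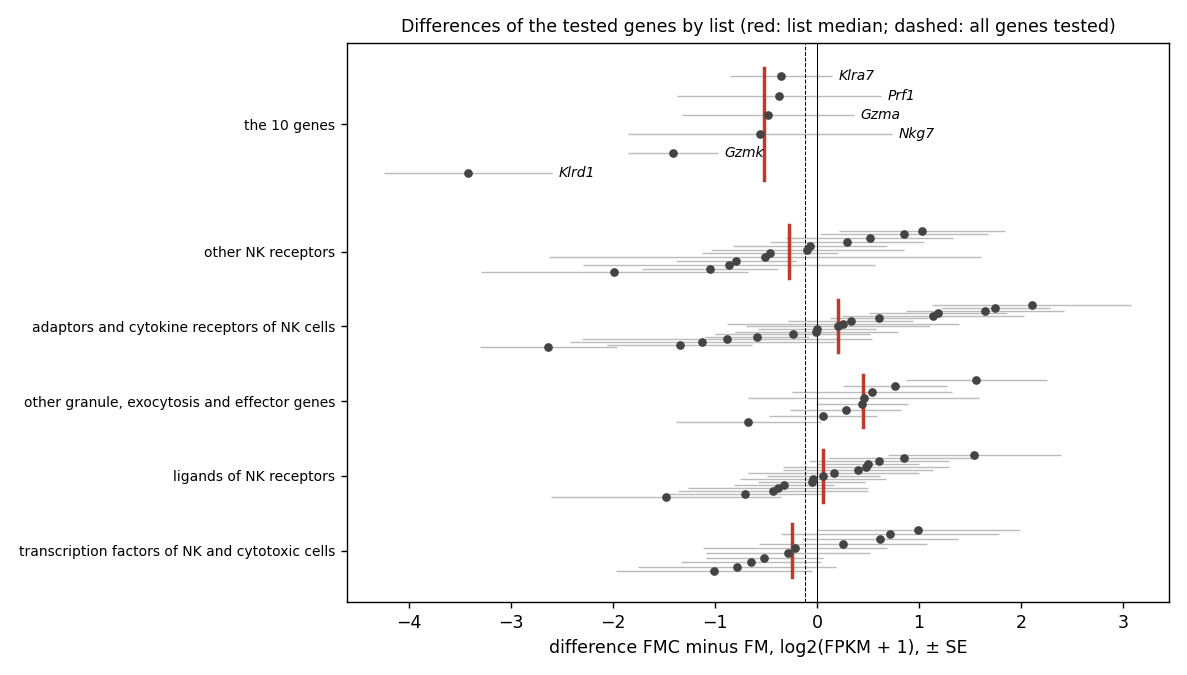
Differences FMC minus FM on the log2(FPKM + 1) scale (horizontal axis, with SE) for the tested genes of each list (rows), with list medians in red, 0 as a solid line and the median of all genes tested, -0.12, dashed. Klrd1 lies at -3.42 and Gzmk at -1.41, and the other 4 tested genes among the 10 lie between -0.56 and -0.35.

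The genes did not peak in the same library. FMC 1 held the highest value of 4 of them (Klrb1c, Gzma, Gzmb and Nkg7), FM 1 of 1 (Klrd1) and FM 2 of 5 (Klrk1, Klra7, Ncr1, Gzmk and Prf1). In FMC 4 only 1 of the 10 genes reached 1 FPKM, and 4, 3 and 3 did so in FMC 1 to FMC 3, against 4 and 7 of them in FM 1 and FM 2. FM 2 is also the deepest library by the estimate above, and the part of depth in these counts was not tested. Summed over the 5 receptors the level was 5.74, 15.3, 1.94 and 4.58 FPKM in FMC 1 to FMC 4, against 85.7 and 46.7 FPKM in FM 1 and FM 2. The 5 granule genes together had 57.2, 2.20, 10.4 and 0.827 FPKM in FMC 1 to FMC 4, against 11.0 and 19.7 FPKM in FM 1 and FM 2. Receptor sums thus separated the groups, through Klrd1, and granule sums did not. In bulk RNA, fewer cells of a type and less RNA per cell cannot be told apart.

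Markers of other lymphocytes moved with the granule genes in 1 library, FMC 1, and so did some markers of other cells, given below. The 19 T cell markers summed to 187, 28.4, 64.7 and 49.9 FPKM in FMC 1 to FMC 4, against 50.6 and 43.5 FPKM in FM 1 and FM 2, and 16, 9, 9 and 10 of them reached 1 FPKM in FMC 1 to FMC 4, against 8 and 7 in FM 1 and FM 2. FMC 1, the library with the highest Nkg7 and Gzma, was the highest for Cd8a (19.9 FPKM, against 0.223 to 1.44 FPKM in the other 5 libraries), Cd4 (27.3 FPKM) and Cd3e (20.4 FPKM). Cd3e was also high in FM 2 (18.4 FPKM), the library with the highest Prf1, and between 0.908 and 4.46 FPKM in the other 4. The other CD3 genes were low in FM 2, with Cd3d at 0.287 FPKM and Cd3g at 0.359 FPKM. Cd3g was listed at 0 in FMC 2, where Gzma and Prf1 were also listed at 0. In FMC 4, where Prf1 was listed at 0 too, Cd3g had 6.13 FPKM. Cd3d ranged from 0.557 to 6.98 FPKM in FMC and from 0.287 to 4.02 FPKM in FM. B cell markers also had their highest sum in FMC 1 (222 FPKM), with 62.2 to 94.7 FPKM in FMC 2 to FMC 4, against 85.9 and 166 FPKM in FM 1 and FM 2. Cd79a, a chain of the B cell receptor complex, had 17.9, 4.88, 6.60 and 9.54 FPKM in FMC 1 to FMC 4, against 0.742 and 1.60 FPKM in FM 1 and FM 2, higher in every FMC library (limma adjusted p = 0.747). Its partner Cd79b, named after its values were seen, was 20.7 ± 19.7 FPKM in FMC (SD, n = 4) and 61.9 ± 51.6 FPKM in FM (SD, n = 2), with its highest level, 98.4 FPKM, in FM 2. The part of T or B cells in the levels of the granule genes was not tested. The microglial genes Cx3cr1 (70.3 to 110.3 FPKM in FMC; 84.4 and 87.9 FPKM in FM), P2ry12 (185 to 311 FPKM in FMC; 239 and 403 FPKM in FM) and Tmem119 (156 to 365 FPKM in FMC; 216 and 440 FPKM in FM) overlapped between the groups. Fcrls, a microglial Fc receptor-like gene named after its values were seen, was 13.8 ± 7.0 FPKM in FMC (SD, n = 4) and 35.9 ± 20.8 FPKM in FM (SD, n = 2), with every FMC library below both FM libraries. The log2 difference was below 0 in all 14 of the 14 microglial markers, with a median of -0.24, so the 6 of 6 above stand beside markers of the sorted cells with the same sign.

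The other marker lists also had 0 genes past the threshold. Dendritic cell markers lay lower in FMC on balance, with 1 difference above 0, 6 below and a median of -0.67. Among them Bst2 was 37.6 ± 18.9 FPKM in FMC (SD, n = 4) and 96.7 ± 33.0 FPKM in FM (SD, n = 2), and Cd209a was 0.492 ± 0.307 FPKM in FMC and 2.98 ± 2.21 FPKM in FM; both, named after their values were seen, were lower in every FMC library. The medians were 0.64 for T cell markers (12 differences above 0 and 4 below), 0.41 for B cell markers (7 above and 3 below), 0.65 for monocyte and neutrophil markers (6 above and 4 below) and 0.42 for mast cell and basophil markers (3 above and 1 below). Groups also did not overlap for the neutrophil markers Ly6g, higher in every FMC library, and Retnlg, lower in every one. The T cell markers Cd5 and Ccr7 were higher in every FMC library. These genes too are named after their values were seen. Of all genes tested, 4.34% lay above and 8.22% below in this way. The part of these cells in the levels of the 10 genes was not tested.

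**Figure D3:**
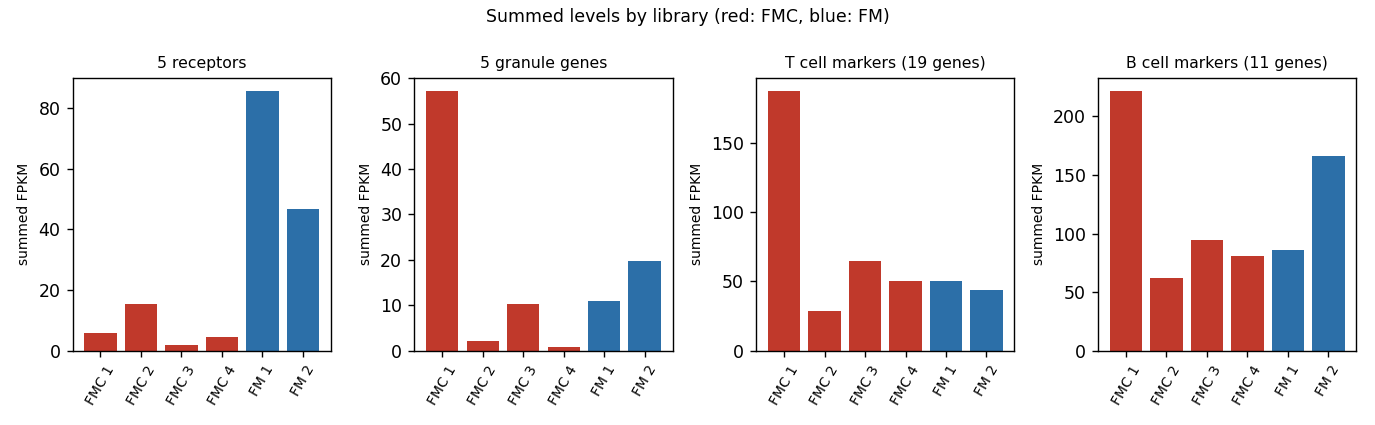
Summed FPKM (vertical axes, each from 0) of the 5 receptors, the 5 granule genes, 19 T cell markers and 11 B cell markers in each FMC (red) and FM (blue) library. The receptor sum is between 1.94 and 15.3 FPKM in FMC and at 85.7 and 46.7 FPKM in FM, while the granule, T cell and B cell sums are highest in FMC 1.

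The wider list of NK receptors gave no call. A place on the list does not show that the RNA came from NK cells, and its source was not tested, also for Klra2 and Klra17. Of 29 listed genes 27 had values and 12 were tested, 0 passed in either direction, 4 differences were above 0 and 8 below, and the median was -0.28. That median had no steady sign: it was 0.28 without FMC 2, -0.58 without FMC 1, -0.01 without FM 2 and -0.08 over all 27 genes. Klrb1a, a relative of Klrb1c, had 1.16, 1.15, 0.138 and 1.92 FPKM in FMC 1 to FMC 4, against 0.261 and 47.8 FPKM in FM 1 and FM 2. FM 2 alone was high, as for Ncr1. Klra2, an inhibitory Ly49 receptor, was 64.6 ± 45.8 FPKM in FMC (SD, n = 4) and 130.0 ± 86.1 FPKM in FM (SD, n = 2), and between 30.03 and 190.9 FPKM over the 6 libraries. Klra9 was 0.508 ± 0.648 FPKM in FMC and 1.58 ± 1.17 FPKM in FM, and Cd244, the SLAM-family receptor 2B4, was 3.92 ± 1.74 and 1.621 ± 1.795 FPKM in FMC and FM. Klra17, named after its values were seen, had 144, 0.167, 127 and 0.0198 FPKM in FMC 1 to FMC 4, against 31.4 and 8.35 FPKM in FM 1 and FM 2, a spread within FMC wider than that of Nkg7. Many Klra and Klrb1 genes have near-identical copies, so the values of this list are uncertain.

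Adaptors and cytokine receptors through which NK cells signal were more abundant. The highest, named after their values were seen, were Tyrobp (945 to 3746 FPKM over the 6 libraries) and Fcer1g (394 to 881 FPKM). The cells that their RNA came from were not tested, so the level of this list is not a measure of NK cells. Of the 19 genes 17 were tested. None passed in either direction by limma (1 higher and 1 lower at an unadjusted p under 0.05), 9 differences were above 0 and 8 below, and the median was 0.21. It was -0.05 without FMC 1, also -0.05 without FMC 4, and 0.49 without FM 2. Sh2d1a, which encodes SAP, the adaptor of SLAM receptors in NK and T cells, had 0.215, 0.0201, 0.0499 and 0.183 FPKM in FMC 1 to FMC 4, against 12.4 and 2.57 FPKM in FM 1 and FM 2. It was lower in every FMC library, as Klrd1 and Gzmk were, and entered the test through FM alone (log2 difference -2.63 ± 0.67 SE, limma adjusted p = 0.527). Il15ra, which presents interleukin-15 to NK cells, had 31.5, 38.4, 36.3 and 55.7 FPKM in FMC 1 to FMC 4, against 7.08 and 17.0 FPKM in FM 1 and FM 2. Every FMC library was above both FM libraries (log2 difference 1.75 ± 0.53 SE, limma adjusted p = 0.664). Cd247, the zeta chain of T and NK cell receptors, was 8.85 ± 5.80 FPKM in FMC (SD, n = 4) and 1.03 ± 1.21 FPKM in FM (SD, n = 2), and the kinase gene Lck was 12.2 ± 9.1 FPKM in FMC and 2.62 ± 0.59 FPKM in FM.

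Of 22 further granule, exocytosis and effector genes 19 had values and 8 were tested, with 0 passing, 7 differences above 0, 1 below and a median of 0.45. Without FM 1 that median was -0.29, without FM 2 it was 1.11, and over all 19 genes with values it was 0.03; the 11 that the filter left out include 6 granzymes. Tnfsf10, the death ligand TRAIL, had 7.56, 6.10, 11.5 and 7.19 FPKM in FMC 1 to FMC 4, against 1.37 and 2.80 FPKM in FM 1 and FM 2, so its groups did not overlap. Srgn, the proteoglycan that packs granules in many leukocytes, was 85.9 ± 32.8 FPKM in FMC (SD, n = 4) and 48.9 ± 16.9 FPKM in FM (SD, n = 2), and Stxbp2, needed for granule fusion, was 127 ± 38 and 91.8 ± 20.8 FPKM in FMC and FM. Gzmm, a granzyme of innate cytotoxic cells, was listed at 0 in FMC 1 and had 0.0446, 1.53 and 0.340 FPKM in FMC 2 to FMC 4, against 0 and 3.76 FPKM in FM 1 and FM 2. It was highest in FM 2, as were Prf1 and Ncr1.

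Ligands and cytokines that engage NK cells had 19 of 24 genes with values and 15 tested. None passed, 8 differences were above 0 and 7 below, and the median was 0.06, with -0.38 without FM 1 and 0.52 without FM 2. Il12b, a subunit of interleukin-12, had 0.787, 2.72, 0.258 and 8.38 FPKM in FMC 1 to FMC 4 against 0 in FM 1, as listed, and 0.0440 FPKM in FM 2. H2-K1, a classical MHC class I gene, was 2126 ± 1044 FPKM in FMC (SD, n = 4) and 1228 ± 829 FPKM in FM (SD, n = 2). Cadm1, a ligand of the receptor Crtam, was 102 ± 39 FPKM in FMC and 69.6 ± 21.5 FPKM in FM, and Clec2g was 1.54 ± 2.66 FPKM in FMC and 8.16 ± 10.8 FPKM in FM.

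Of 13 transcription factors of NK and cytotoxic cells 12 had values and 10 were tested, with 0 passing, 4 differences above 0, 6 below and a median of -0.25. The median was 0.04 without FM 2, -0.43 without FMC 2 and -0.02 over all 12. The T-box factors Eomes and Tbx21, used here as NK cell markers, were not among those tested. Letters of their family were found in the 4 windows printed above. Eomes had 1.03 FPKM in FMC 2 and at most 0.0857 FPKM in the other FMC libraries, against 0.142 and 0.0615 FPKM in FM 1 and FM 2. Tbx21 had 0.845 FPKM in FMC 4, no more than 0.0652 FPKM in the other FMC libraries, and 0 and 0.103 FPKM in FM 1 and FM 2. FM 2, the library with the highest Ncr1, Prf1 and Gzmk, thus had little of either. Another NK cell marker, Il2rb, a cytokine receptor gene named after its values were seen, was highest in FM 2. It had 19.5, 0.432, 13.3 and 0.0248 FPKM in FMC 1 to FMC 4, against 2.26 and 20.5 FPKM in FM 1 and FM 2. The part of NK cells in these levels was not tested. Nfil3 was 5.83 ± 6.20 FPKM in FMC (SD, n = 4) and 9.08 ± 2.47 FPKM in FM (SD, n = 2), Id2 8.21 ± 6.44 and 3.71 ± 4.14 FPKM, Tox 0.971 ± 1.222 and 1.798 ± 0.929 FPKM, and Prdm1 9.20 ± 2.88 and 13.3 ± 2.0 FPKM in FMC and FM.

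Likeness to the mean log2 profile of the 6 tested genes was measured over the 6 libraries as the root mean square difference after centring, among 8192 genes with a mean of at least 5 FPKM. The nearest was Zfp932 at 0.199, with 7.97, 4.08, 4.04 and 2.14 FPKM in FMC 1 to FMC 4, against 8.91 and 8.19 FPKM in FM 1 and FM 2. Mbtps2 (0.273), Acadsb (0.278), Arrdc1 (0.287) and Coq9 (0.304) followed. The mean profile was high in FMC 1, FM 1 and FM 2 and lowest in FMC 4. It averages genes that do not share a profile, and Klra7, for one, was listed at 0 in FMC 1.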

How the data were processed

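Gene levels were measured in 6 libraries of microglia sorted from optic nerves, 4 FMC and 2 FM. Per the labels' protocols, TRIzol-extracted RNA was turned into amplified cDNA (Ovation), sheared and read on an Illumina HiSeq. Tools named by the submitters' processing notes, with no roles, are Cufflinks 2.0.2, TopHat2 2.0.4, CASAVA 1.8.2 and Bowtie2 2.0.0, with build mm9. The deposited values are FPKM per gene by the authors. No source used here gives the strand setting of the counting. Starts in the table count from 0 and were raised by 1.

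Values were tested as log2(FPKM + 1), a scale that understates changes of low genes, with limma 3.58.1 in R 4.3.3 (intensity trend, two-sided, Benjamini-Hochberg adjustment, threshold 0.05). The fit covered the 18208 genes that reached 1 FPKM in 2 or more libraries. The 426 genes without a value in some library were left out. Scripts were tested on simulated data. There the fit called 0% of 2-fold, 2.8% of 4-fold and 51.6% of 16-fold changes, made in genes well above the filter. A gene that was not called is therefore not shown to be unchanged. Precision is set by the spread between libraries (median residual SD 0.84, log2). Relative depth came from the commonest ratio between libraries of values under 0.5 FPKM.

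The members and lists were chosen with earlier results of these data known. Named are the 10 genes, the 4 genes with the smallest p of each pathway list, 10 cell type markers, 1 of which is not reported here, and the 5 genes most alike in profile. Marker lists covered T cells, B cells, microglia, monocytes and neutrophils, mast cells and basophils, and dendritic cells. The alternatives tried were another pseudocount (0.1), other filters (none, or a mean of 5 FPKM), median ratio and quantile scaling, no trend, array weights, labelled sex as a term, blocks (replicate numbers, adjacent title dates) and omission of each library, where a lone FM library was assumed to vary like FMC.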

Additional observations from a re-analysis of the deposited data

Results flagged for a closer look

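In 6 of 45 genes with 4 FMC values, 1 FMC library stood apart from the other 3 by more of the range than chance gives in about 1 in 20 groups. Klra7 was at 1.10 FPKM in FMC 2. Clec2g was at 5.52 FPKM in FMC 2. Prdm1 was at 13.5 FPKM in FMC 4. In FMC 1, Cd8a was at 19.9 FPKM, Arrdc1 at 63.3 FPKM and Coq9 at 10.9 FPKM. Arrdc1 and Coq9 were chosen for likeness to a mean profile that is itself high in FMC 1. Their values in FMC 1 were thus partly set by that choice and cannot be read against the share that chance gives.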

How the results depend on the processing

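Of the 6 genes tested, none passed the threshold in any alternative that tested it (16 for Klrd1 and Nkg7, 15 for Prf1, 13 each for Klra7, Gzma and Gzmk), nor did the other 4 genes in the fit with no filter, the one that held them. Of 86 differences recomputed, 83 kept their direction, and the exceptions were Nkg7 (0.38 with the replicate block, 0.20 without FMC 4) and Prf1 (0.90 without FM 2). Fits whose filter left a gene out are not among the 86. They do not show whether that gene kept its direction. With each library left out Nkg7 ran from -1.53 to 0.20 and Prf1 from -1.64 to 0.90. Gzma ran from -1.14 to -0.15 and Klra7 from -0.83 to -0.25, each over only the 4 omissions that kept it past the filter. Gzma was not fitted without FMC 1 or FM 1, nor Klra7 without FMC 2 or FM 2. The direction of Gzma and Klra7 in those omissions was not computed, so their ranges do not show a steady sign. The median over the genes tested was -1.99 with a mean filter of 5 FPKM, which left 2 genes, and -0.16 with the replicate block; with each library left out it ran from -1.41 to -0.21. The number of all genes called was 5 as reported, with 0 higher and 5 lower in FMC. It was 1, higher, with a pseudocount of 0.1, and 33, all lower, with no filter. With no intensity trend it was 10, all lower. A mean filter of 5 FPKM, sex as a covariate and the replicate block each gave 0. The block by adjacent title dates gave 3 (2 higher, 1 lower). With each FMC library left out it ran from 0 to 8, with 4 higher and 4 lower without FMC 4. Neither number nor direction was steady, and the cause was not tested. With the replicate block the list medians were 0.15 (other NK receptors), -0.13 (adaptors) and 0.19 (transcription factors), each on the other side of 0, and quantile normalization moved the last to 0.07. For equal replicate numbers, deviations from the group means correlated across genes at 0.0314 (FMC 1 with FM 1) and -0.0569 (FMC 2 with FM 2). For the libraries with adjacent title dates the correlations were 0.0569 (FMC 2 with FM 1) and -0.0685 (FMC 3 with FM 2). With 2 FM libraries the deviations of FM 1 and FM 2 are equal and opposite. The values for FMC 2 are therefore the same number with opposite sign, and these correlations cannot decide between the pairings. Genes under 1 FPKM, such as Gzmb and Klrb1c, can rest on few fragments, and differences between their libraries were not resolvable at this depth.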
